A study of Mus musculus with 4 samples.

Results

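The cells described here were selected as heart muscle cells of the atria and the inflow tract, the venous pole of the heart. They came from mouse embryos of stages E9.5 and E10.5, counted in days from conception. The name is that of the rule, and many members carried little RNA of atrial muscle genes such as Nppa, as given below. Members were chosen by raw UMI counts (UMIs are counts of distinct captured RNA molecules) of 11 genes. A cell first had to carry 2 or more UMIs in at least 5 of 8 sarcomere genes, which are Tnnt2, Myl4, Myl7, Actc1, Tnni1, Ttn, Myh6 and Myh7 and code for the contractile apparatus. Among these sarcomere-positive cells, a member had 0 UMIs of Irx4, a ventricular transcription factor, and at least 1 UMI of Nr2f1 plus Nr2f2, the COUP transcription factors. The rule gave 473 cells, 289 at E9.5 and 184 in the E10.5 library, out of 805 sarcomere-positive cells, 12094 cells of both libraries that passed the filters and 22662 deposited cells of the whole series. The other 332 sarcomere-positive cells, 228 at E9.5 and 104 in the E10.5 library, served for comparison.

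Both libraries came from Swiss Webster embryos of genotype Mesp1Cre;Rosa26-GFPflox/+, in which Cre from the Mesp1 locus turns on GFP in early mesoderm and its descendants. Living GFP-positive cells were sorted from the dissected pharyngeal apparatus and heart of pooled embryos and captured in droplets by 10x Genomics chemistry (3' version 2), in which only the 3' end of a transcript is read. The labels name no other allele and no treatment, cells without a history of Mesp1 expression were not sampled, and cells cannot be traced to single embryos. Each stage had 1 library, so stage and library cannot be told apart.

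The atria and the sinus venosus, into which the veins drain, are added at the venous pole from posterior second heart field mesoderm. In that field Tbx5, Osr1, Wnt2 and Foxf1 are active, and the right sinus horn, where Shox2, Tbx18 and Hcn4 are active, gives rise to the sinoatrial node, the pacemaker of the heart. Nr2f2 maintains atrial identity, while Irx4 and Hey2 mark ventricular muscle, whose regulatory myosin light chain is Myl2.

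The 2 libraries held 4055 and 8070 deposited cells with 74920880 and 142850521 UMIs. Members had a median of 18020 UMIs and 4075 detected genes per cell at E9.5 and 16467 UMIs and 3953 genes at E10.5, against 17498 and 14917.5 UMIs in the other sarcomere-positive cells. Summed over the members, 5811480 UMIs stood behind the values at E9.5 and 3429877 at E10.5, against 4226401 and 1734144 in the other sarcomere-positive cells. The cell barcodes shared by the libraries numbered 41. Haemoglobin and other red cell transcripts were close to 0 in members at E9.5 and made up a median of 0.488% of UMIs at E10.5, close to the 0.516% in cells without the sarcomere program. All intervals given below are at 95% and cover counting error only.

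Members made up 55.9% of sarcomere-positive cells at E9.5 (Clopper-Pearson interval 51.5 to 60.2) and 63.9% in the E10.5 library (58.0 to 69.4). They were 7.13% of all cells that passed the filters at E9.5 (6.36 to 7.97) and 2.29% in the E10.5 library (1.97 to 2.64). A rare transcript can be missed in a cell, so the share can change with the number of UMIs per cell. Sarcomere-positive cells with at least 6000 UMIs (508 at E9.5, 278 at E10.5) were also thinned to 6000 UMIs. The Irx4 and Nr2f terms were applied again to the thinned counts, and the sarcomere gate was not. The shares were then 49.8% and 49.6%, without the gap between the stages seen in full counts. Before thinning, sarcomere-positive cells had a median of 17608 UMIs in the E9.5 library and 15898 in the later library, whose share was higher. The source of the gap, and of its loss on thinning, was not tested. The shares describe sorted cells of a dissection and are not a census of the heart.

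The genes that chose the members are given as a description. At E9.5, 222 members had UMIs of both Nr2f1 and Nr2f2, 40 of Nr2f2 only and 27 of Nr2f1 only. At E10.5 the numbers were 85, 73 and 26. The median was 7 Nr2f UMIs per member at E9.5 and 4 in the E10.5 library, and 29 and 27 members entered with exactly 1 UMI. Red cells of the E10.5 library, which are not muscle, had an Nr2f1 UMI in 13.7% and an Nr2f2 UMI in 14.5% of cells at a median of 28609 UMIs. The shares in members were 60.3% and 85.9% at 16467 UMIs. The part of free RNA in the members with 1 UMI was not tested, and results with at least 2 Nr2f UMIs required are given under the processing.

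**Figure D1:**
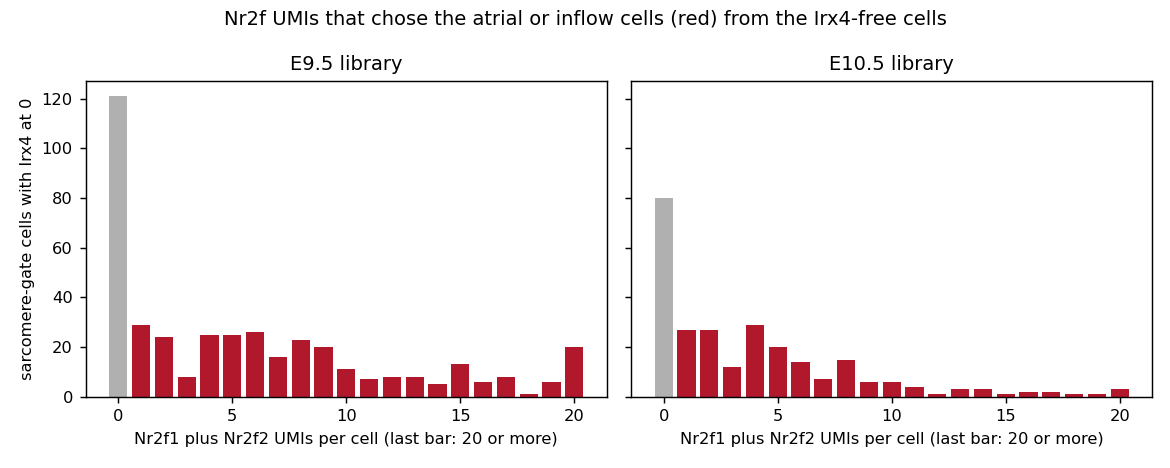
The horizontal axis gives Nr2f1 plus Nr2f2 UMIs per cell (last bar, 20 or more), and the vertical axis the number of sarcomere-positive cells with Irx4 at 0, in the E9.5 library (left) and the E10.5 library (right). Grey bars at 0 UMIs (121 and 80 cells) are cells outside the class and red bars are members, of which 29 and 27 had 1 UMI.

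The sarcomere genes of the gate are higher in members than outside the gate by construction, and their levels are given as a description. Tnnt2, cardiac troponin T, stood at 2049 CPM (UMIs per 1000000 UMIs of the class) at E9.5 and 2574 in the E10.5 library in members. The other sarcomere-positive cells had 3864 and 2572 CPM of Tnnt2, and cells outside the gate 24.7 and 11.6 CPM. Myh6, the heavy chain of atrial myosin, stood at 390.1 and 639 CPM in members and at 545 and 246 in the other sarcomere-positive cells. It was thus lower in members at E9.5 and higher in the E10.5 library. Myh7, the heavy chain of ventricular and slow muscle, stood at 165 and 241 CPM in members and at 1349 and 1399.5 in the other sarcomere-positive cells. All 8 sarcomere genes were present in 80 members (27.7%) at E9.5 and 67 (36.4%) at E10.5, compared with 173 (75.9%) and 47 (45.2%) of the other sarcomere-positive cells. Members thus held fewer of the sarcomere genes at both stages, and the comparison among cells with all 8 is therefore given beside the results that it moves.

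At the threshold of the gate, 80 members at E9.5 and 38 in the E10.5 library had exactly 5 sarcomere genes, while 155 and 67 cells with 4 lay just outside, having met the Irx4 and Nr2f terms. Myl7 was at 1257 and 1998 CPM just inside and at 628 and 1387 CPM just outside. Tnnt2 was at 465 and 503 CPM just inside and at 168 and 159 CPM just outside. Tbx18 was at 278 and 175 CPM just inside and at 205 and 292 just outside. Cells on both sides of the threshold carried Tbx18 and sarcomere transcripts. The latter were at lower levels outside it, and the count of these genes had set the threshold.

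To find what else sets the members apart, their summed counts were compared with those of the other sarcomere-positive cells in both libraries (4 sums, library as a block, edgeR's quasi-likelihood test). The 11 genes of the rule were left out. The 2 libraries are 2 stages, so that the p-values measure whether a difference was alike at both, with 1 residual degree of freedom per gene and a spread shared across genes. Of 10941 genes tested, 137 were higher in members (1.25%) and 182 were lower (1.66%) at an adjusted p under 0.05. The median log2 fold change over all genes was 0.01. DESeq2 called 52 and 80 genes, and without the library block edgeR called 0 higher and 1 lower (349 and 341 at an unadjusted p under 0.05), so that the calls rest on comparing the classes within each library. All 30 genes named as the most raised and most lowered kept their direction in each of the 10 other fits. By DESeq2, 13 of the 15 raised and 12 of the 15 lowered genes passed, with Tbx18, Tbx5, Mhrt, Cited1 and Itm2a as the exceptions. With 2 Nr2f UMIs required, 14 and 11 passed, with Tbx18, Mhrt, Cited1, Itm2a and Lmo2 as the exceptions. Among genes with at least 50 CPM in the higher class, Shox2, Vsnl1 and Smoc2 had the largest rises and Myl2, Pln and Mhrt the largest falls.

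Genes of the inflow tract were raised in members. Of 10 tested genes of an inflow list 6 were higher in members and none was lower, with a median log2 fold change of 2.34. Shox2 (ENSMUSG00000027833, chr3:66971723-66981771, GRCm38), the homeobox gene of the sinus venosus and pacemaker, stood at 262 CPM at E9.5 (249.1 to 276) and 179 in the E10.5 library (165 to 193) in members. In the other sarcomere-positive cells it stood at 15.6 (12.1 to 19.9) and 9.80 (5.71 to 15.7), below the members of both libraries. The difference was 16.3-fold (log2 fold change 4.03 ± 0.15 (SE), edgeR adjusted p = 9.1e-05), the largest rise among genes with at least 50 CPM in the higher class.

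Shox2 UMIs were present in 65.1% of members at E9.5 and 62.5% in the E10.5 library. In endothelial cells the shares were 2.02% and 3.30%, at median depths of 17697.5 and 18842.5 UMIs. The remaining members, 101 and 69 cells, had no Shox2 UMI.

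Vsnl1 (ENSMUSG00000054459, chr12:11325257-11436578), which codes for the calcium sensor visinin-like 1, was present in more members than Shox2, in 88.6% at E9.5 and 79.3% in the E10.5 library. Endothelial cells had it in 5.56% and 6.35%. Its level in members was 296 CPM at E9.5 and 265 at E10.5, against 27.0 and 6.92 in the other sarcomere-positive cells (log2 fold change 3.90 ± 0.32 (SE), edgeR adjusted p = 0.0018). Members were higher at both stages.

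Tbx18 (ENSMUSG00000032419, chr9:87702800-87731260), the T-box factor of the sinus horns, stood at 166 CPM at E9.5 and 66.2 at E10.5, against 16.6 and 34.6 in the other sarcomere-positive cells. At E9.5 the log2 ratio was 3.32 (2.97 to 3.69) and at E10.5 it was 0.94 (0.52 to 1.37), both above 0, and the gene passed the test by a small margin (log2 fold change 2.19 ± 0.45 (SE), edgeR adjusted p = 0.049). With at least 2 Nr2f UMIs required it did not pass (log2 fold change 1.72, edgeR adjusted p = 0.28). The share of members with a Tbx18 UMI was 56.1% at E9.5 and 23.4% in the E10.5 library. Smoc2, a secreted matrix protein, stood at 115 CPM at E9.5 and 32.7 at E10.5, against 8.04 and 2.31 in the other sarcomere-positive cells (log2 fold change 3.74 ± 0.21 (SE), edgeR adjusted p = 4.3e-04). Both genes were raised in members, with lower levels in the later library.

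Hcn4, the main channel of the pacemaker current, was scarce but raised. It stood at 7.23 CPM at E9.5 and 7.29 at E10.5, against 0.946 and 1.73 in the other sarcomere-positive cells (log2 fold change 2.49 ± 0.50 (SE), edgeR adjusted p = 0.046), and 12.8% and 13.0% of members had an Hcn4 UMI. Requiring 2 Nr2f UMIs also ended the Hcn4 call (adjusted p = 0.11 by edgeR). Endothelial cells had an Hcn4 UMI in 0 of 198 and 3 of 394 cells. Of the inflow genes that did not pass, Tbx3, a T-box repressor of the conduction system, stood at 17.0 CPM at E9.5 and 19.2 at E10.5, against 17.3 and 16.7 in the other sarcomere-positive cells. Rgs6 had 7.74 and 20.7 CPM in members, Cacna2d2 49.6 and 86.0, and Isl1, the factor of the second heart field, 68.0 and 92.7. Compared with the other sarcomere-positive cells, Isl1 was higher in members at E9.5 and lower in the E10.5 library.

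Promoters of genes with the largest differences are shown because the class was defined by a nuclear receptor pair and includes T-box factors. The 300 bases around the start site (250 before, 50 after; RefSeq table for GRCm38.p6, 5′ to 3′ on the gene's strand) were searched on both strands for the nuclear receptor half-site AGGTCA and the T-box half-site AGGTGT. Over 27025 promoters of this length, 16.0% held the first and 13.9% the second. Of the 15 named genes that were most raised, 11 had a promoter in the table, of which 1 held the nuclear receptor half-site and 2 the T-box half-site. Of the 15 most lowered, 11 had one, of which none held the first and 1, Mt2, the second. Capitals mark the matches, and lower case bases hold none.

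Shox2, chr3:66981722-66982021, minus strand, no match: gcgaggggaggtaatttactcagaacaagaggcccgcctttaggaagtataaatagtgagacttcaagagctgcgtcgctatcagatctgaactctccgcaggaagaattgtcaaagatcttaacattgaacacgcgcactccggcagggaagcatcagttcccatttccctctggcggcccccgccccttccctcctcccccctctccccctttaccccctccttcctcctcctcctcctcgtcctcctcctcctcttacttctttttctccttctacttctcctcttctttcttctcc

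Hoxb4, chr11:96318017-96318316, plus strand, AGGTCA at -81 and AGGTGT at -14 from the start site, both read on the opposite strand: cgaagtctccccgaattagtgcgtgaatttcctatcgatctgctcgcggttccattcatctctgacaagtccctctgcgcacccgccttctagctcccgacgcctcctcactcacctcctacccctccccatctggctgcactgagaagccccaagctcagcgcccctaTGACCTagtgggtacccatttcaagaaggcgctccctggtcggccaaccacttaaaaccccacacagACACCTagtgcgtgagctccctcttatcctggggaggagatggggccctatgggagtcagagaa

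Dcaf12l1, chrX:44790148-44790447, minus strand, AGGTGT at -88, read on the opposite strand: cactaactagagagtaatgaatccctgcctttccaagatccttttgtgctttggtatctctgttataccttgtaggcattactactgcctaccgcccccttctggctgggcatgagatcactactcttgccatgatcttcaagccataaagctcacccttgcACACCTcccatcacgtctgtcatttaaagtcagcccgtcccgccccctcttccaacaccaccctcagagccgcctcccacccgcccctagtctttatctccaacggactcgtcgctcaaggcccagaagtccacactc

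The Shox2 promoter holds neither half-site in this window. A match in the letters is a description and was not tested as a binding site.

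Genes of atrial muscle were raised in part. Of 11 tested genes of an atrial list 5 were higher in members and none was lower, with a median log2 fold change of 1.43. Stard10 (ENSMUSG00000030688, chr7:101317086-101346626), a lipid transfer protein, stood at 56.3 CPM at E9.5 and 93.9 at E10.5, against 8.99 and 8.65 in the other sarcomere-positive cells (log2 fold change 2.88 ± 0.23 (SE), edgeR adjusted p = 0.0016). Kcna5, which codes for the ultrarapid potassium channel of atrial muscle, stood at 26.2 CPM at E9.5 and 34.4 at E10.5, against 1.66 and 3.46 in the other sarcomere-positive cells (log2 fold change 3.6 ± 0.31 (SE), edgeR adjusted p = 0.0021). Both were low in the other sarcomere-positive cells of both libraries.

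Tbx5 (ENSMUSG00000018263, chr5:119796514-119885220), the T-box factor of the atria and the posterior field, stood at 91.5 CPM at E9.5 and 97.1 at E10.5, against 34.1 and 10.4 in the other sarcomere-positive cells (log2 fold change 1.94 ± 0.33 (SE), edgeR adjusted p = 0.027). Its level in members was nearly the same in both libraries. Angpt1, a ligand of the endothelial receptor Tie2, stood at 97.9 CPM at E9.5 and 78.7 at E10.5, against 23.7 and 15 in the other sarcomere-positive cells (log2 fold change 2.10 ± 0.17 (SE), edgeR adjusted p = 0.0016).

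Sln, sarcolipin, the atrial inhibitor of the calcium pump, was rare but found in members alone among sarcomere-positive cells. Members had 17 UMIs at E9.5 and 38 at E10.5, in 6 and 11 cells. The other sarcomere-positive cells had 0 UMIs, which allows up to 0.710 and 1.73 CPM, against 2.93 and 11.1 CPM in members. Sln passed the filter on low counts through the members alone, so its place among the 5 higher genes of the list is no support for the count. At E9.5 only 2.08% of members had a Sln UMI.

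Nppa, the natriuretic peptide of atria and trabeculae, did not separate the classes. It stood at 228 CPM at E9.5 and 335 at E10.5, against 623 and 127 in the other sarcomere-positive cells. Members were lower at E9.5, with a log2 ratio of -1.45 (-1.55 to -1.35), and higher at E10.5, with 1.40 (1.19 to 1.61). The test over both libraries did not pass (log2 fold change -0.18 ± 0.58 (SE), edgeR adjusted p = 0.93). Nppa UMIs were found in 20.1% of members at E9.5 and 16.3% in the E10.5 library, so that its level came from a minority of them. Hey1, a Notch target of the atria, stood at 76.7 CPM at E9.5 and 49.9 at E10.5, against 14.2 and 36.3 in the other sarcomere-positive cells (edgeR adjusted p = 0.11). Gja5, the gap junction protein connexin 40, stood at 6.19 CPM at E9.5 and 45.8 at E10.5, against 2.84 and 3.46 in the other sarcomere-positive cells (edgeR adjusted p = 0.058). Neither passed the threshold, although both were higher in members in each library.

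**Figure D2:**
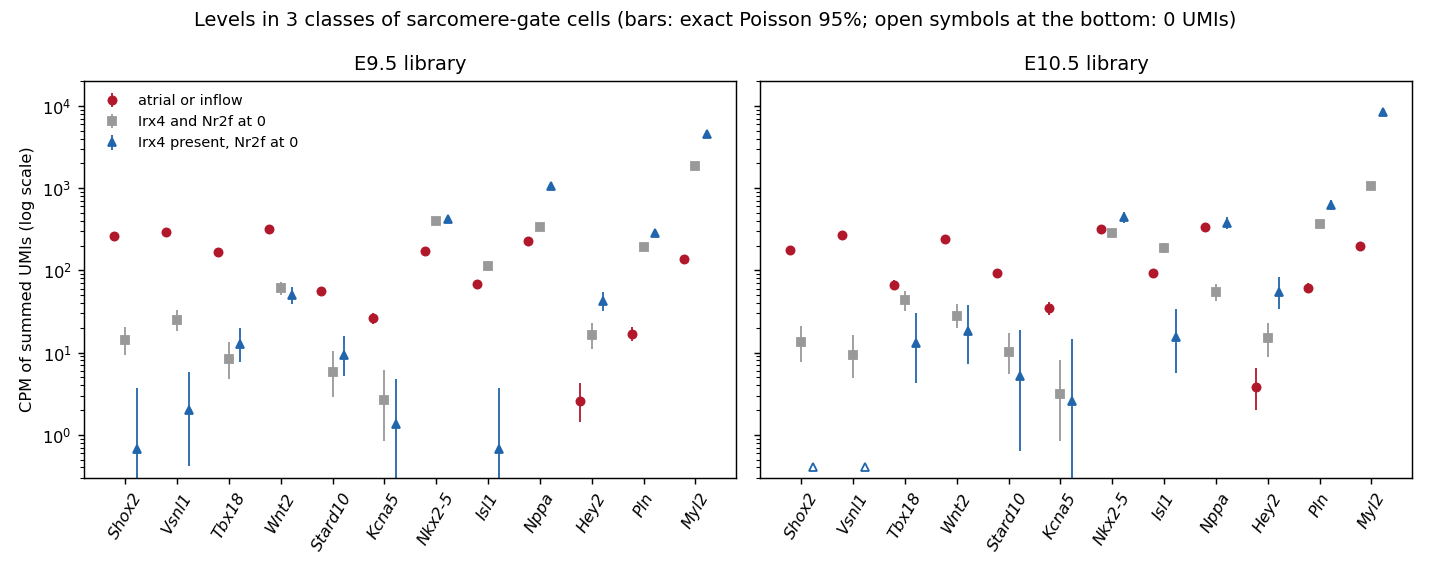
The vertical axis gives CPM of summed UMIs on a log scale for 12 genes in the E9.5 library (left) and the E10.5 library (right). Red circles are the atrial and inflow cells, grey squares the cells with Irx4 and Nr2f at 0 and blue triangles the Irx4-positive Nr2f-negative cells; bars are exact Poisson intervals and open symbols at the bottom mark 0 UMIs. Shox2 in members stands at 262 and 179 CPM above both other classes, and Myl2 at 138 and 198 CPM below them.

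Members also carried transcripts of the posterior second heart field, the mesoderm next to the venous pole. Of 5 tested genes of this list 3 were higher in members and none was lower, with a median of 1.80. Osr1 (ENSMUSG00000048387, chr12:9574442-9581500), a zinc finger factor of that field, stood at 33.7 CPM at E9.5 and 121 at E10.5, against 3.31 and 9.80 in the other sarcomere-positive cells (log2 fold change 3.43 ± 0.21 (SE), edgeR adjusted p = 5.6e-04). Wnt2 (ENSMUSG00000010797, chr6:17985474-18032772), a signal of the venous pole, stood at 318 CPM at E9.5 and 241 at E10.5, against 61.8 and 25.4 in the other sarcomere-positive cells (log2 fold change 2.63 ± 0.21 (SE), edgeR adjusted p = 0.0016). Wnt2 UMIs were present in 82.7% and 67.9% of members and in 12.1% and 4.57% of endothelial cells. Foxf1, the forkhead factor of this mesoderm, stood at 41.6 CPM at E9.5 and 18.1 at E10.5, against 13.0 and 2.88 in the other sarcomere-positive cells (log2 fold change 1.80 ± 0.27 (SE), edgeR adjusted p = 0.017). Cells outside the gate had 113 and 50.1 CPM of Foxf1 and 68.3 and 63.9 CPM of Osr1. Wnt2 was at 90.9 and 27.0 CPM outside. The level of Foxf1 in members was therefore between those of the other sarcomere-positive cells and of the cells outside, while that of Wnt2 was above both.

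Among the other genes with the largest rises were secreted proteins, and 2 of these were mainly found at E9.5. Sfrp5, a secreted Wnt inhibitor of the sinus venosus, stood at 168 CPM at E9.5 and 28.6 at E10.5, against 13.5 and 7.5 in the other sarcomere-positive cells (log2 fold change 3.14 ± 0.31 (SE), edgeR adjusted p = 0.0037). Adm, adrenomedullin, stood at 177 CPM at E9.5 and 26.8 at E10.5, against 18.5 and 5.19 in the other sarcomere-positive cells (log2 fold change 3.0 ± 0.21 (SE), edgeR adjusted p = 9.5e-04). Both were raised at each stage, at lower levels in the later library.

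Dcaf12l1, a presumed substrate adaptor of ubiquitin ligases, stood at 66.1 CPM at E9.5 and 77.0 at E10.5, against 12.8 and 4.04 in the other sarcomere-positive cells (log2 fold change 2.82 ± 0.34 (SE), edgeR adjusted p = 0.0085). Hoxb4, a homeobox gene of posterior position, stood at 77.3 CPM at E9.5 and 35.3 at E10.5, against 11.6 and 12.1 in the other sarcomere-positive cells (log2 fold change 2.23 ± 0.27 (SE), edgeR adjusted p = 0.0088). The actin-binding drebrin gene Dbn1 had 126 and 78.1 CPM in members (log2 fold change 1.85), and the adhesion gene Flrt3 had 118 and 49.6 (log2 fold change 1.81). All 4 were higher in members in both libraries. Among cells with all 8 sarcomere genes, Hoxb4 and Flrt3 did not pass (log2 fold changes 1.19 and 0.80, edgeR adjusted p = 0.12 and 0.26).

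**Figure D3:**
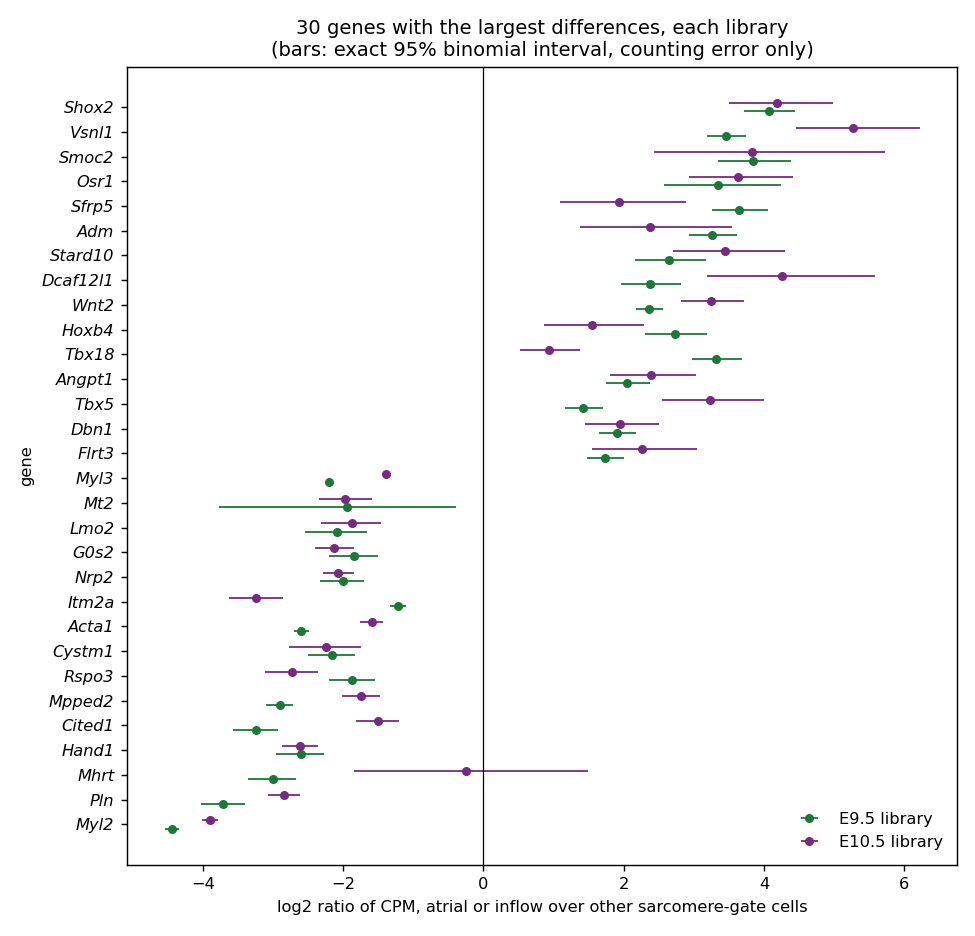
The horizontal axis gives the log2 ratio of CPM of members over the other sarcomere-positive cells for the 15 genes most raised and the 15 most lowered, in the E9.5 (green) and E10.5 (purple) library, with exact binomial intervals. Shox2 stands near 4 in both libraries, Tbx18 is at 3.32 and 0.94, and the interval of Mhrt spans 0 at E10.5.

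Ventricular genes were low in members. Of 13 tested genes of the ventricular list 9 were lower and none was higher, with a median of -2.42. Myl2 (ENSMUSG00000013936, chr5:122092724-122113473), the regulatory light chain of ventricular myosin, stood at 138 CPM at E9.5 and 198 at E10.5, against 2986 and 2943 in the other sarcomere-positive cells. The difference was 18.8-fold (log2 fold change -4.23 ± 0.18 (SE), edgeR adjusted p = 1.1e-04). It was nevertheless found in 23.2% and 17.4% of members, compared with 8.59% and 5.58% of endothelial cells.

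Pln, phospholamban, the inhibitor of the calcium pump, stood at 16.9 CPM at E9.5 and 60.6 at E10.5, against 220.3 and 435 in the other sarcomere-positive cells (log2 fold change -3.31 ± 0.22 (SE), edgeR adjusted p = 7.2e-04). Hey2, the ventricular Notch target, stood at 2.58 CPM at E9.5 and 3.79 at E10.5, against 32.4 and 23.1 in the other sarcomere-positive cells (log2 fold change -3.27 ± 0.32 (SE), edgeR adjusted p = 0.0037). Hand1, a factor of the left ventricle, stood at 15.3 CPM at E9.5 and 48.4 at E10.5, against 93.0 and 295 in the other sarcomere-positive cells (log2 fold change -2.67 ± 0.13 (SE), edgeR adjusted p = 2.0e-04). These 3 genes were thus lower in members at both stages, whether they were more abundant at E10.5, as Pln and Hand1 were, or not.

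Cited1, a transcriptional coactivator, had 16.2 and 44.3 CPM in members (log2 fold change -2.44). Mpped2 had 46.1 and 54.2 (log2 fold change -2.43), and Myl3, the essential light chain of ventricular myosin, 688 and 1013 (log2 fold change -1.86). All 3 passed the test, as did Nppb and Lbh, of which Nppb was at -0.16 among cells with all 8 sarcomere genes (edgeR adjusted p = 0.81). Irx1, Irx2, Irx3 and Irx5 did not, and each had under 10 CPM in members of both libraries.

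Of the genes most lowered that no list held, Nrp2, a neuropilin receptor, stood at 19.8 CPM at E9.5 and 75.8 at E10.5, against 79.5 and 318 in the other sarcomere-positive cells (log2 fold change -2.10 ± 0.12 (SE), edgeR adjusted p = 5.4e-04). G0s2, an inhibitor of lipolysis, stood at 17.0 CPM at E9.5 and 46.6 at E10.5, against 61.3 and 204 in the other sarcomere-positive cells (log2 fold change -2.06 ± 0.14 (SE), edgeR adjusted p = 7.5e-04). Itm2a, Cystm1 and Lmo2 also fell, with log2 fold changes of -2.10, -2.27 and -2.05. Mt2, a metallothionein, stood at 0.860 CPM at E9.5 and 26.2 at E10.5, against 3.31 and 103 in the other sarcomere-positive cells (log2 fold change -2.00 ± 0.23 (SE), edgeR adjusted p = 0.006), and cells outside the gate had 404 CPM at E10.5. The Mt2 call ended without cells that hold endothelial or red cell RNA (log2 fold change -0.44, edgeR adjusted p = 0.71), and Itm2a did not pass among cells with all 8 sarcomere genes (adjusted p = 0.12 by edgeR).

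Mhrt, a non-coding RNA transcribed antisense to Myh7, stood at 14.6 CPM at E9.5 and 2.92 at E10.5, against 118 and 3.46 in the other sarcomere-positive cells (log2 fold change -2.73 ± 0.42 (SE), edgeR adjusted p = 0.019). At E10.5 the interval of its ratio included 0 (-0.25 (-1.85 to 1.5)), so that the difference rests on the E9.5 library. Whether counting used the strand is not given in the sources used here, and Myh7 was itself among the genes of the rule.

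Sarcomere genes that the rule did not use were lower as a group, 14 of 22 tested, with none higher and a median of -0.98. Acta1, skeletal actin, stood at 162 CPM at E9.5 and 148 at E10.5, against 979.8 and 444 in the other sarcomere-positive cells (log2 fold change -2.18 ± 0.24 (SE), edgeR adjusted p = 0.0052). Des, desmin, stood at 225 CPM at E9.5 and 265 at E10.5, against 596 and 585 in the other sarcomere-positive cells (log2 fold change -1.34 ± 0.13 (SE), edgeR adjusted p = 0.0031), and Actn2, the actinin of the Z disc, at 82.6 CPM at E9.5 and 89.2 at E10.5, against 261 and 192 in the other sarcomere-positive cells (log2 fold change -1.47 ± 0.16 (SE), edgeR adjusted p = 0.006). The part of the lower number of gate sarcomere genes in members was examined only through the cells that held all 8. There 5 of the 22 genes were lower, with a median of -0.31. Myl2, which the list shares with the ventricular one, was at -3.34 (edgeR adjusted p = 1.2e-07), Des at -0.74 (adjusted p = 0.0083 by edgeR) and Actn2 at -0.59 (adjusted p = 0.054 by edgeR). The inflow list by contrast had 5 of 9 tested genes higher among those cells, the atrial list 5 of 10, and the ventricular list 8 of 10 lower. Of all 8671 genes tested among those cells 106 were higher in members and 84 were lower, against 137 and 182 of 10941 in the main comparison.

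Others of the sarcomere list did not separate the classes. Tnni3, the troponin I of mature heart, stood at 394 CPM at E9.5 and 785 at E10.5, against 761 and 511 in the other sarcomere-positive cells, and Csrp3, a Z disc protein, at 650.1 CPM at E9.5 and 1240.3 at E10.5, against 1059 and 729 in the other sarcomere-positive cells. Both were lower in members at E9.5 and higher in the E10.5 library. Tnnc1, cardiac troponin C, had 1223 and 1787 CPM in members and 2288 and 1764 in the other cells (edgeR adjusted p = 0.3).

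Of 18 tested genes for calcium handling and conduction, 4 were higher, among them Hcn4, Kcna5 and Sln (which passed the filter through the members alone), and 2 were lower (Pln and Popdc2), with a median of 0.08. Atp2a2, the calcium pump of the sarcoplasmic reticulum, stood at 367 CPM at E9.5 and 473 at E10.5, against 318 and 252 in the other sarcomere-positive cells (edgeR adjusted p = 0.25). Ryr2, the calcium release channel, stood at 59.0 CPM at E9.5 and 89.2 at E10.5, against 79.7 and 54.8 in the other sarcomere-positive cells. Pln, an inhibitor of the pump, was thus lower in members, while neither the pump nor the release channel passed the test.

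Of 13 tested cardiac transcription factors 1 was higher in members and 1 was lower, with a median of -0.22. At an unadjusted p under 0.05 in edgeR, 3 were higher and 5 were lower, against 778 and 949 of all 10941 genes. Gata4, a zinc finger factor, was higher in members, at 91.7 CPM at E9.5 and 76.7 at E10.5, against 38.3 and 49.6 in the other sarcomere-positive cells (log2 fold change 0.91 ± 0.17 (SE), edgeR adjusted p = 0.036). Tbx20, a T-box factor of chamber muscle, was lower, at 54.0 CPM at E9.5 and 323 at E10.5, against 87.5 and 516 in the other sarcomere-positive cells (log2 fold change -0.75 ± 0.12 (SE), edgeR adjusted p = 0.019). Neither passed among cells with all 8 sarcomere genes (log2 fold changes 0.33 and -0.22, edgeR adjusted p = 0.54 and 0.65). Nkx2-5, the homeobox factor of heart muscle, stood at 172 CPM at E9.5 and 315 at E10.5, against 389 and 317 in the other sarcomere-positive cells (log2 fold change -0.67 ± 0.25 (SE), edgeR adjusted p = 0.25). At E9.5 its level in members was lower, with a log2 ratio of -1.18 (-1.29 to -1.06), and at E10.5 the ratio was -0.01 (-0.16 to 0.14), whose interval includes 0. Gata6 and Mef2c had 181 and 208 CPM and 363 and 309 CPM in members, and neither passed.

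Against all other sarcomere-positive cells, no gene of the outflow tract or atrioventricular canal lists passed as higher in members. Of 7 tested outflow genes 3 were lower (Sema3c, Tdgf1 and Rspo3), and of 5 of the canal 2 were lower (Msx2 and Rspo3), with none higher in either. Sema3c, a guidance signal of the outflow tract, stood at 29.1 CPM at E9.5 and 26.5 at E10.5, against 50.9 and 112 in the other sarcomere-positive cells (log2 fold change -1.47 ± 0.26 (SE), edgeR adjusted p = 0.031). Tdgf1, the Nodal co-receptor Cripto, stood at 6.88 CPM at E9.5 and 0.583 at E10.5, against 47.6 and 6.92 in the other sarcomere-positive cells (log2 fold change -2.96 ± 0.28 (SE), edgeR adjusted p = 0.0031). The 2 UMIs in members at E10.5 gave a log2 ratio of -3.57 (-6.77 to -1.40), and Tdgf1 did not pass among cells with all 8 sarcomere genes (edgeR adjusted p = 0.16). Rspo3, an activator of Wnt signalling, stood at 18.9 CPM at E9.5 and 22.7 at E10.5, against 69.3 and 151 in the other sarcomere-positive cells (log2 fold change -2.35 ± 0.20 (SE), edgeR adjusted p = 0.0021).

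Retinoic acid patterns the venous pole, and 2 of 11 tested genes of this pathway were higher in members, with none lower and a median of 0.29. Crabp2, which codes for a retinoic acid-binding protein, stood at 197 CPM at E9.5 and 115 at E10.5, against 79.0 and 70.9 in the other sarcomere-positive cells (log2 fold change 0.97 ± 0.16 (SE), edgeR adjusted p = 0.022). Aldh1a2, the enzyme that makes retinoic acid, stood at 7.57 CPM at E9.5 and 17.8 at E10.5, against 1.89 and 10.4 in the other sarcomere-positive cells (edgeR adjusted p = 0.16). Cells outside the gate had 214 and 203 CPM of Crabp2, more than members in each library. Among cells with all 8 sarcomere genes 1 of 5 tested genes of the list was higher.

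In the Notch list 1 of 8 tested genes was higher (Notch2) and 2 were lower (Hey2 and Hes1). Notch2 stood at 30.8 CPM at E9.5 and 17.5 at E10.5, against 7.81 and 6.92 in the other sarcomere-positive cells (log2 fold change 1.68 ± 0.26 (SE), edgeR adjusted p = 0.019), with 0.60 among cells with all 8 sarcomere genes (edgeR adjusted p = 0.64). None of 12 BMP genes passed in the main edgeR fit or DESeq2, with 1 higher and 3 lower at an unadjusted p under 0.05 in edgeR. With thinned cells 1 of 11 was higher and 2 were lower in edgeR, and with no filter on low counts 1 and 3 of 12. In the energy list 2 of 12 were lower, Fabp3, a fatty acid carrier, at log2 fold change -1.37 and Slc2a1, a glucose transporter, at log2 fold change -1.21. Of 12 S phase and 12 G2/M genes none passed in the main edgeR fit or DESeq2, with medians of -0.12 and 0.39. Other edgeR settings called G2/M genes higher, 2 with 6 of 8 sarcomere genes and 1 with doublets removed. There were 1 without endothelial or red cell RNA and 6 with no filter on low counts. With all 8 sarcomere genes 2 S phase genes were lower, and with no filter 1 was higher and 1 lower. At an unadjusted p under 0.05 in edgeR, 6 of the G2/M genes were higher in members and none was lower, against 1 and 1 of the S phase genes. Of all 10941 genes 778 were higher and 949 lower at that threshold. Crabp2, Hes1 and Notch2 did not pass by DESeq2.

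Markers of other cell types that the gate could hold were counted in the same comparison. Of 6 tested endothelial genes none passed in the main edgeR fit or DESeq2 (2 higher at an unadjusted p under 0.05 in edgeR). In edgeR 1 was higher with 6 of 8 sarcomere genes, 1 with thinned cells and 1 with no filter on low counts. The endothelial list summed to 46.8 and 86.9 CPM in members, 28.4 and 83 in the other sarcomere-positive cells and 107 and 107 outside the gate. Of 7 red cell genes 2 were lower in members (Hba-a1 and Hba-x; Hba-a1 has a near-identical copy, so that its counts are uncertain), and the list summed to 9.64 and 8575 CPM in members against 7.10 and 24677. Of 7 epicardial genes 1, Tcf21, was higher, and the list summed to 600.0 and 846 CPM against 526 and 908. Of 9 mesenchymal genes 1, Pdgfra, was higher, at 539 and 585 CPM for the list against 271 and 906. The comparison cells were mixed in this respect. The mesenchymal list summed to 74.2 and 88.1 CPM in the Irx4-positive Nr2f-negative cells and to 418 and 1176 in those with neither. Both tested genes of the branchiomeric muscle list, Lhx2 and Tcf21, were higher. The list summed to 87.1 and 87.5 CPM in members, 27.9 and 42.7 in the other sarcomere-positive cells and 181 and 124 outside the gate. Myod1 and Myog were at 0 UMIs in members at E9.5. In the E10.5 library both had UMIs in members and were at 0 in the other sarcomere-positive cells. Lhx2 did not pass with 6 of 8 sarcomere genes, with 2 Nr2f UMIs or by DESeq2. Sox10 and Foxd3 of neural crest and Ptprc of blood cells were at 0 in members of both libraries. Of 6 stress genes 1, the small heat shock gene Hspb1, was lower. Among cells with all 8 sarcomere genes Tcf21, Hspb1, Hba-a1 and Hba-x did not pass (edgeR adjusted p = 0.14, 0.48, 0.69 and 0.28). The part of these transcripts in the results was not tested, and leaving out cells with endothelial or red cell RNA gave 166 higher and 203 lower genes.

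Against the 99 Irx4-positive cells without Nr2f alone (78 at E9.5, 21 at E10.5), of 9558 genes tested 425 were higher in members (4.45%) and 463 were lower (4.84%), by edgeR on 6 sums that include the cells with neither. In this class Shox2 had 1 UMI at E9.5 and 0 in the E10.5 library. Tcf21 had 0 UMIs in both libraries, which allows up to 2.01 and 7.77 CPM, against 58.8 and 74.6 in members. Genes that did not pass against the whole remainder passed here. Isl1 had 1 UMI and 6 UMIs in the Irx4-positive cells, against 395 and 318 in members (edgeR adjusted p = 0.0011). In the Irx4-positive cells Bmp4 stood at 23.4 and 33.7 CPM, against 182 and 182 in members (log2 fold change 2.57 ± 0.26 (SE), edgeR adjusted p = 5.2e-04). Both were higher in members, and both are in the outflow list. Of its 7 tested genes 2 were higher here and 1, Rspo3, was lower, with a median of 0.39. Nkx2-5 was lower in members in this comparison (log2 fold change -1.02 ± 0.27 (SE), edgeR adjusted p = 0.042). Among lists of other cell types, 7 of 8 tested mesenchymal genes were higher in members and none was lower, with a median of 3.22. Of 7 epicardial genes 3 were higher (Upk3b, Tcf21 and Aldh1a2) and none was lower, with a median of 0.60. All 3 had 0 UMIs in the Irx4-positive cells at E9.5, and Tcf21 and Aldh1a2 also in the E10.5 library. Tcf21 and Aldh1a2 thus entered the test only through the other classes, and their calls are no support for the count. None of 4 tested endothelial and 7 red cell genes passed. In the Irx4-positive cells of the E10.5 library 5 of the 9 mesenchymal genes had 0 UMIs, among them the called Twist1, Pdgfra and Meox1. Meox1 was at 0 there at E9.5 as well, so its call is likewise no support for the count. The 2 comparisons share the members and are not independent, and the difference between them was not tested.

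Members were not uniform, and they differed among themselves with the number of gate sarcomere genes, which is given as a description. At E9.5, 150 members had 5 or 6 of the genes and 139 had 7 or 8, and at E10.5 the numbers were 70 and 114. Median depth was 18332 and 17689 UMIs at E9.5 and 14867.5 and 17218 at E10.5. Nppa stood at 5.43 against 489 CPM at E9.5 and 0 against 517 in the E10.5 library. Myh6, which is among the counted genes and so differs by construction, stood at 13.4 against 829.9 CPM at E9.5 and 12.4 against 978 in the E10.5 library. Nppa, which the count did not use, was thus nearly absent from the cells with 5 or 6 sarcomere genes. In the 80 members with 5 genes at E9.5, Nkx2-5 stood at 20.2 and Tnnc1 at 39.3 CPM. With 8 genes at E9.5 they stood at 379 and 3228 CPM. Wnt2 at E9.5 stood at 311 CPM with 5 genes and 193 with 8. Whether the members with few sarcomere genes are atrial muscle was not tested.

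Stard10 stood at 16.9 against 102 CPM at E9.5 and 13.3 against 138 in the E10.5 library in the same groups. Nkx2-5 stood at 41.8 against 324 CPM at E9.5 and 148 against 405 in the E10.5 library. Tbx18 ran the other way, at 247 against 70.9 CPM at E9.5 and 130.2 against 31.5 in the E10.5 library. Tcf21, a factor of the epicardium and of pharyngeal mesoderm, stood at 91.7 against 20.5 CPM at E9.5 and 145 against 36.4 in the E10.5 library, and Upk3b, a gene of mesothelium, at 10.9 against 3.36 CPM at E9.5 and 173 against 25.6 in the E10.5 library.

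Shox2, by contrast, stood at 271 against 252 CPM at E9.5 and 212 against 161 in the E10.5 library, and Vsnl1 at 248.8 against 351 CPM at E9.5 and 241 against 278 in the E10.5 library. Both were thus present across the range, and Shox2 at E9.5 was highest in cells with 7 sarcomere genes, at 396 CPM, against 151 in cells with 8. Inflow genes were thus found in both groups, but Nppa and Stard10 were found mainly in the cells with 7 or 8 sarcomere genes. Osr1 at E10.5 stood at 195 CPM in cells with 5 or 6 genes and 80.5 in cells with 7 or 8.

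**Figure D4:**
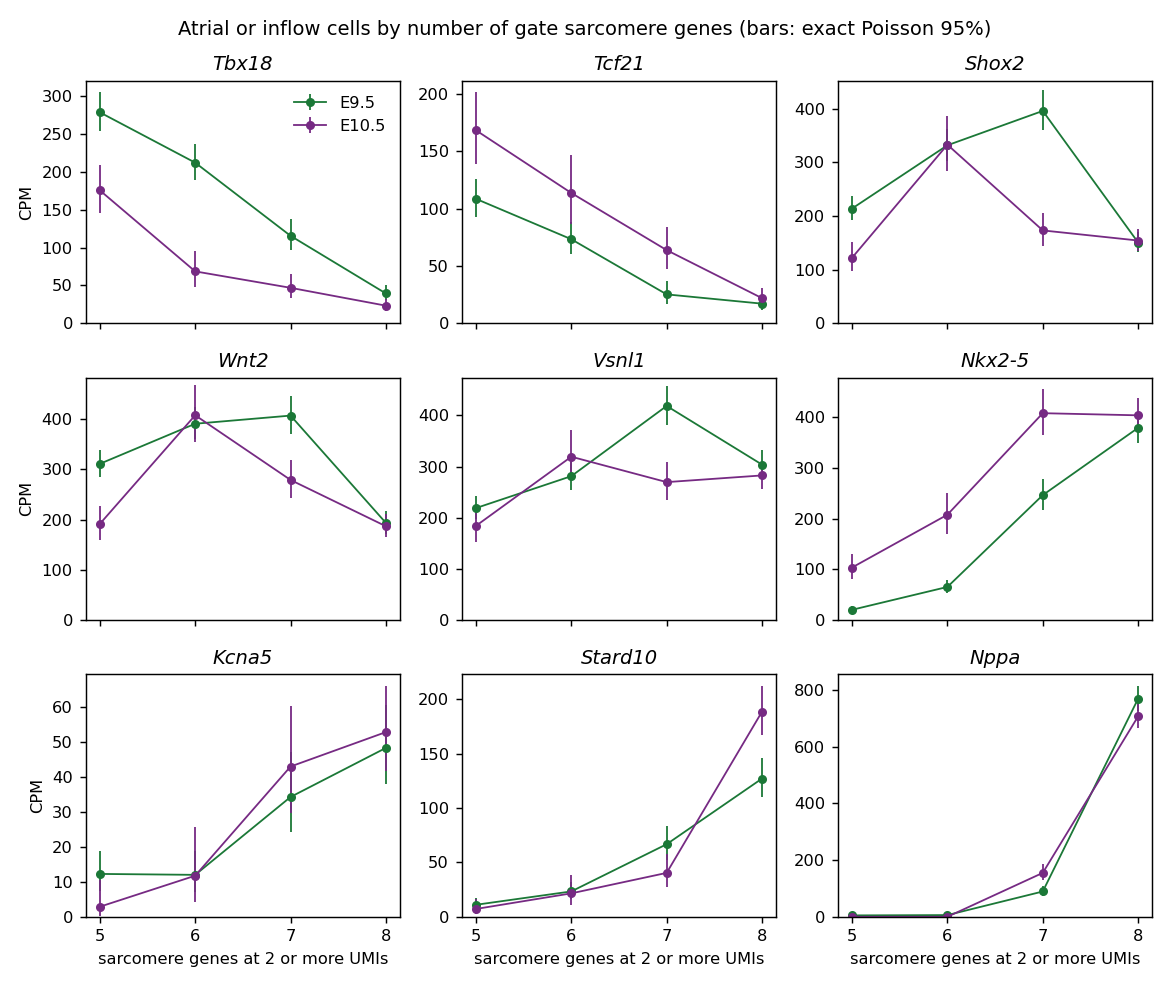
Each panel gives CPM of 1 gene (vertical axis) in members by the number of gate sarcomere genes with 2 or more UMIs (horizontal axis), at E9.5 (green) and E10.5 (purple), with exact Poisson intervals. Tbx18 and Tcf21 are lower in the groups with more sarcomere genes, Nkx2-5, Stard10 and Nppa are higher with 7 or 8 than with 5 or 6, and Shox2, Wnt2 and Vsnl1 have no single direction.

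Cells with and without Shox2 UMIs were compared as a second description. Shox2 was present in 188 members at E9.5 and 115 in the E10.5 library, with medians of 18715 and 15146 UMIs per cell, and at 0 in 101 and 69, with 16511 and 19070. Nppa stood at 79.6 against 556 CPM at E9.5 and 51.6 against 730.0 in the E10.5 library (Shox2 present against 0). Gja5 stood at 1.75 against 16.0 CPM at E9.5 and 29.6 against 68.3 in the E10.5 library, and Myl2 at 27.8 against 380.3 CPM at E9.5 and 27.6 against 435 in the E10.5 library. The members without Shox2 UMIs therefore held most of the Nppa, Gja5 and Myl2 transcripts of the class.

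Smoc2 went with Shox2, at 159 against 18.2 CPM at E9.5 and 50.6 against 7.67 in the E10.5 library, and Vsnl1 at 341 against 197 CPM at E9.5 and 383 against 101 in the E10.5 library. Nkx2-5 stood at 78.3 against 379 CPM at E9.5 and 325 against 299.8 in the E10.5 library, so that the cells with Shox2 were low in Nkx2-5 at E9.5 only. At E9.5, 73.9% of the members with Shox2 had a Tbx18 UMI, against 22.8% of those without. At E10.5 the shares were 22.6% and 24.6%. Nkx2-5 UMIs were present in 29.3% of members with Shox2 at E9.5 and 87.1% of those without, and in 85.2% and 78.3% at E10.5.

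Finally, the stages were compared within the members. No test was possible with 1 library per stage, and a gene was counted past 2-fold if it had at least 20 UMIs over both libraries. Of 11088 such genes, 754 were higher at E10.5 (6.8%) and 319 were lower (2.88%), with a median log2 ratio of 0.02. Of 21 measured genes for calcium handling and conduction 10 were past 2-fold higher at E10.5 and none was lower, with a median of 0.97. The make-up of the members also moved with the stage, since 139 of 289 at E9.5 and 114 of 184 at E10.5 had 7 or 8 sarcomere genes. Its part in the stage ratios was not tested.

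Gja5 stood at 6.19 CPM at E9.5 (4.34 to 8.58) and 45.8 in the E10.5 library (38.9 to 53.5), while the other sarcomere-positive cells had 2.84 and 3.46. Kcnj5, a subunit of the acetylcholine-activated potassium channel, stood at 4.82 and 35.3 CPM, with 10.9 and 14.4 in the other cells. Kcnj3, its partner, had 1.55 and 7.0 CPM. These 3 genes were thus low in members at E9.5 and at higher levels in the E10.5 library.

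By the rule for named genes, 39 genes had at least 50 CPM in the higher library and an interval past 2-fold upward, and 27 downward, of which 19 of the 20 largest are described. Upk3b stood at 7.40 CPM at E9.5 and 77.6 in the E10.5 library, with a log2 ratio of 3.39 (2.92 to 3.89) in members and 4.98 (4.09 to 6.01) in the other sarcomere-positive cells. Tbx20 stood at 54.0 CPM at E9.5 and 323 in the E10.5 library, with ratios of 2.58 (2.40 to 2.77) and 2.56 (2.38 to 2.74). Col1a2, a collagen of mesenchyme, stood at 32.7 CPM at E9.5 and 172 in the E10.5 library, with 2.39 (2.15 to 2.64) and 4.04 (3.55 to 4.56). These 3 were higher at E10.5 in both classes.

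Wisp1, a matrix-associated signal, stood at 16.2 CPM at E9.5 and 62.1 in the E10.5 library in members, and its ratio was 1.94 (1.58 to 2.31), compared with 1.23 (0.38 to 2.08) in the other sarcomere-positive cells and 0.21 (0.06 to 0.36) in cells outside the gate. Cpne5, a calcium-dependent membrane-binding protein, stood at 15 CPM at E9.5 and 56.6 in the E10.5 library, with a ratio of 1.92 (1.55 to 2.30). In the other sarcomere-positive cells the ratio of Cpne5 was -0.50 (-1.13 to 0.09) and outside the gate -0.77 (-0.99 to -0.56). Nrp2 and Unc5b, receptors for guidance signals, had ratios of 1.94 (1.62 to 2.27) and 1.91 (1.65 to 2.19) in members.

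Of the genes lower at E10.5, Mab21l2 stood at 58.7 CPM at E9.5 and 5.25 in the E10.5 library, with a ratio of -3.48 (-4.26 to -2.80). Sfrp5 stood at 168 CPM at E9.5 and 28.6 in the E10.5 library, Adm at 177 CPM at E9.5 and 26.8 in the E10.5 library and Smoc2 at 115 CPM at E9.5 and 32.7 in the E10.5 library. The ratios of Sfrp5 and Adm outside the gate were -3.36 (-3.51 to -3.20) and -3.70 (-3.93 to -3.47), so that these genes were also lower at E10.5 outside the gate. The ratio of Smoc2 was -1.82 (-2.12 to -1.53) in members, -1.80 (-3.76 to -0.31) in the other sarcomere-positive cells and -0.04 (-0.15 to 0.06) outside the gate. Itm2a, Mgarp, Dusp9 and Phlda1 had ratios of -3.06 (-3.44 to -2.71), -2.80 (-3.45 to -2.20), -1.78 (-2.13 to -1.44) and -1.66 (-1.90 to -1.43) in members.

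The remaining 4 of these genes had ratios of like size in all cells. Gm10320, Nme2, Gm5611 and Tpm3-rs7 have near-identical copies or are pseudogenes, so that their counts are uncertain. In members their ratios were 3.92, 3.42, -4.85 and -4.66, and outside the gate 3.67, 3.07, -4.70 and -4.94 in the same order. They moved with the library, and their part in the count of genes was not tested.

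**Figure D5:**
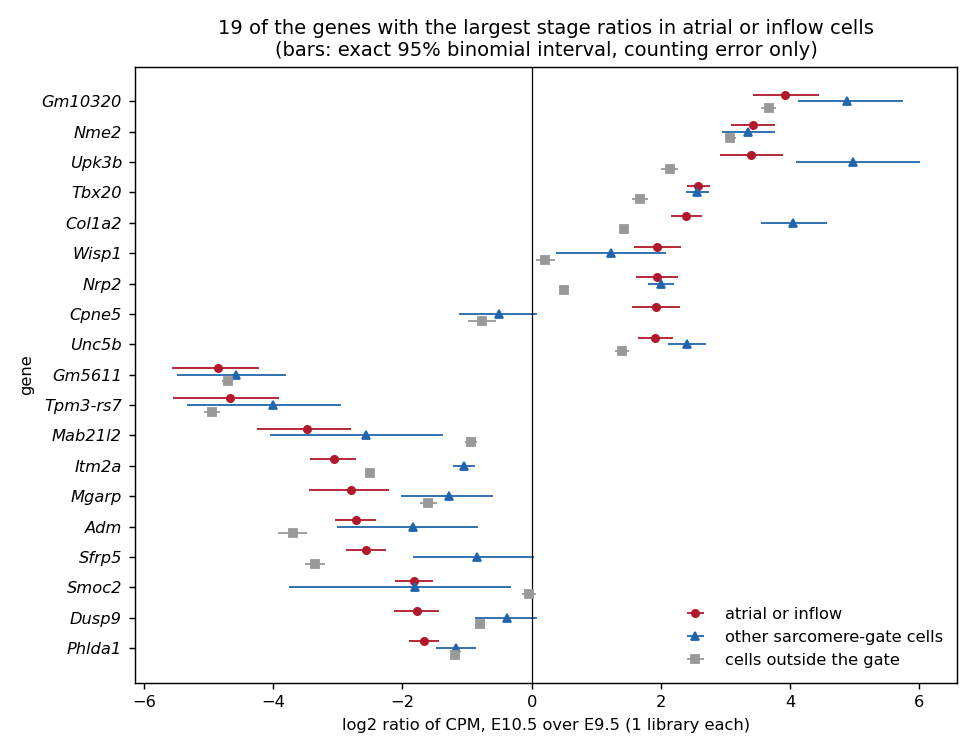
The horizontal axis gives the log2 ratio of CPM at E10.5 over E9.5 (1 library each) for 19 named genes, in members (red circles), the other sarcomere-positive cells (blue triangles) and cells outside the gate (grey squares), with exact binomial intervals. Cpne5 is at 1.92 in members and at -0.50 and -0.77 in the other classes, while Gm5611 is at -4.85 in members and at -4.58 and -4.70 in the other classes.

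Cell cycle genes had lower levels at E10.5. Of 12 G2/M genes 3 were past 2-fold lower and none was higher, with a median of -0.85, and of 12 S phase genes 1 was lower, with a median of -0.67. Of 6 measured genes of the posterior second heart field list 1 was past 2-fold higher and 2 were lower, with a median of -0.50. Top2a stood at 217 and 122 CPM in members, 138 and 82.5 in the other sarcomere-positive cells and 292 and 240.2 outside the gate. The list of G2/M genes summed to 1409 and 760 CPM in members and to 1782 and 1427 outside. Inflow genes gave no common direction, with 1 of 10 past 2-fold higher and 2 lower and a median of 0.09, and Shox2, Vsnl1 and Wnt2 stayed within 2-fold between the libraries.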

How the data were processed

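Per the labels, living GFP-positive cells of the E9.5 and E10.5 libraries were captured with the 10x Genomics 3' version 2 kit. The deposited files hold raw UMI counts per gene and cell, which the authors made with Cell Ranger 3.1.0 on mm10 (submitters' processing notes).

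Cells with at least 1000 genes and at most 10% mitochondrial UMIs were kept (12094 of 12125), doublets were not removed in the class itself, and the gate was applied to raw counts. Counts were summed per class and library. CPM is UMIs per 1000000 UMIs of that sum. Sums were compared with edgeR 4.0.16 (TMM scaling, filterByExpr, quasi-likelihood test, library as a block, Benjamini-Hochberg adjustment over all genes outside the rule, threshold 0.05). With 4 sums there was 1 residual degree of freedom, and the spread was moderated across genes (prior degrees of freedom 6.63). Per library, Poisson, Clopper-Pearson and exact binomial ratio intervals at 95% were computed with scipy 1.17.1, and cell statistics with numpy 2.4.6, pandas 2.3.3 and scanpy 1.11.5 in Python 3.11.15. Intervals and floors (3 counts for 0) cover counting error only.

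Named genes were the 15 called genes with the largest fold change each way (at least 50 CPM in the higher class, same direction in both libraries), detected genes of the lists and, for stages, the 10 largest ratios each way. Genes of the rule and mitochondrial, ribosomal protein and haemoglobin genes were left out of these ranks, and some genes that the rule names are not reported here. The members, lists and rules were chosen with earlier results of these data known. Coordinates and promoters are from RefSeq GRCm38.p6 (263 of 264 genes matched). The script was tested on simulated data. Alternatives were 2 Nr2f UMIs, Nr2f2 alone, 6 or all 8 sarcomere genes (the last added after seeing the data), thinning to 6000 UMIs, doublet removal, leaving out cells with endothelial or red cell RNA, RLE scaling, DESeq2 1.42.0 in R 4.3.3 (pydeseq2 had been planned), no filter on low counts, no library block, each library alone and, for stages, another minimum and another scaling.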

Additional observations from a re-analysis of the deposited data

Results flagged for a closer look

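Some genes differed in opposite directions at the 2 stages when members were compared with the other sarcomere-positive cells, with intervals of the log2 ratio that lay on opposite sides of 0. With 1 library per stage the difference between stages was not tested, and stage and library cannot be told apart. Values are the log2 ratio at E10.5 minus that at E9.5. The genes that were lower in members at E9.5 and higher in the E10.5 library were Nppa (2.84), the troponin I gene Tnni3 (1.57), the light chain gene Myl1 (1.74), Csrp3 (1.47), the calcium release channel Ryr2 (1.14), the calcium store protein Casq1 (1.62), the oxidase subunit Cox6a2 (2.30) and, among the genes named for the stages, Cpne5 (2.42). The genes that were higher at E9.5 and lower in the E10.5 library were Isl1 (-0.85), Bmp4 (-1.39), Gata5 (-0.83), the glycolytic gene Pkm (-0.18), Sparc (-0.31), Col1a1 (-1.63) and Dlk1 (-2.66). The make-up of the comparison cells moved with the stage, since 173 of 228 at E9.5 and 47 of 104 at E10.5 held all 8 sarcomere genes, and its part in these differences was not tested.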

How the results depend on the processing

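The share of sarcomere-positive cells that were members was 55.9% at E9.5 and 63.9% in the E10.5 library. At E9.5 it was 50.3% with 2 Nr2f UMIs required, 50.7% with Nr2f2 alone, 48.8% with 6 of 8 sarcomere genes, 31.6% with all 8 and 49.8% after thinning. At E10.5 it was 54.5%, 54.9% and 49.6% with 2 Nr2f UMIs, Nr2f2 alone and thinning. Against the other sarcomere-positive cells, the number of genes higher in members was 62 with 2 Nr2f UMIs, 52 with DESeq2, 470 with no filter on low counts and 0 with no library block. The number lower was 89 with 2 Nr2f UMIs, 84 with all 8 sarcomere genes, 80 with DESeq2, 563 with no filter and 1 with no block. Against the Irx4-positive cells, 97 genes were higher with all 8 sarcomere genes, 163 after thinning, 248 after doublet removal, 180 with DESeq2, 745 with no filter and 28 with no block, and 52, 217, 245, 231 and 22 were lower with all 8 sarcomere genes, thinning, doublet removal, DESeq2 and no block. The causes were not tested, except that fewer cells and genes entered with all 8 sarcomere genes and more genes were tested with no filter. Of the 69 called genes of the lists and ranks, Mab21l2 changed sign with all 8 sarcomere genes (-0.31) and Hba-a1 in the E9.5 library alone (0.54, against -1.63 in the E10.5 library alone). Of these, 19 lost their call with DESeq2, 25 with 2 Nr2f UMIs, 25 (beside the 1 that changed sign) with all 8 sarcomere genes, 5 with doublets removed and 68 with no block. RLE scaling ended none of the 69 calls. A library left out leaves no residual degrees of freedom, so only values can be given. Between stages, 378 genes were higher with at least 50 UMIs and 424 with all 8 sarcomere genes, and 197 were lower with at least 50 UMIs. Depth limits genes under about 10 CPM, and members with 1 Nr2f UMI cannot be told from cells with free RNA.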

Other observations

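The values of members with only 1 of the Nr2f genes detected are given as a description. At E9.5, 27 had Nr2f1 only and 40 Nr2f2 only, and at E10.5 the numbers were 26 and 73. Wnt2 stood at 194 against 224 CPM at E9.5 and 44.9 against 375 in the E10.5 library (Nr2f1 only against Nr2f2 only). Osr1 stood at 30 against 69.8 CPM at E9.5 and 4.08 against 207 in the E10.5 library, and Shox2 at 187 against 104 CPM at E9.5 and 67.4 against 239.6 in the E10.5 library. At E10.5 the cells with Nr2f1 only thus had less Wnt2, Osr1 and Shox2, while Shox2 ran the other way at E9.5. Upk3b stood at 2.31 against 17.1 CPM at E9.5 and 169.5 against 89.4 in the E10.5 library. Nppa stood at 96.8 against 627 CPM at E9.5 and 145 against 59.0 in the E10.5 library, so that its order was not the same in the 2 libraries.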
